A study of Mus musculus with 2 samples.

Results

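The MHC class II high cells described here are alveolar macrophages (AMs) that carried many transcripts of the classical class II genes and few of the interferon-response genes. A filtered cell was a barcode with at least 500 detected genes and at most 10% mitochondrial unique molecular identifiers (UMIs), and it was taken as class II high when *H2-Aa*, *H2-Ab1*, *H2-Eb1* and *Cd74* together gave at least 2000 counts per 1000000 of its UMIs (CPM), and *Isg15*, *Ifit1*, *Ifit2*, *Ifit3*, *Irf7*, *Rsad2* and *Cxcl9* together under 500 CPM. By this rule 1098 of 13851 filtered cells were members, 675 of them in the control library and 423 in the tumor library. Both libraries came from sorted AMs of C57BL/6 mice, with an age of 10 weeks in the labels. The control library held AMs of mice given vehicle, and the tumor library AMs of mice carrying an orthotopic tumor of the Lewis lung carcinoma line LLC in the left lung. The sort, per the study's methods, took autofluorescent CD45+ cells with Siglec-F and F4/80 on the surface, and the droplet chemistry of 10x Genomics read the 3′ ends of the transcripts. The number of animals behind each library is not given in the sources used here. With 1 library per condition, condition, animals and library batch cannot be told apart, no p-value was computed, and every interval given below is an exact 95% interval that covers counting error only and no spread between cells or animals.

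AMs are the resident phagocytes of the air spaces and take up surfactant, particles and microbes. MHC class II molecules are pairs of an α and a β chain that show peptides from endocytosed proteins to CD4 T cells. In the mouse the genes *H2-Aa* and *H2-Ab1* encode the pair I-A, and *H2-Eb1* a β chain of I-E. Whether these cells made a whole I-E pair was not measured. *Cd74* encodes the invariant chain that escorts new class II molecules to endosomes, where H2-DM, built from *H2-DMa* and *H2-DMb1*, helps to exchange its remnant for a peptide, and H2-O, of which *H2-Oa* gives a chain, restrains H2-DM. Transcription of these genes is governed by the class II transactivator *Ciita*, which binds no DNA itself and is held at the X and Y boxes of class II promoters by the RFX, CREB and NF-Y factors.

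In GENCODE vM21 on GRCm38, the build that the labels name as mm10, most of the class II genes lie together on chromosome 17: *H2-Oa* at chr17:34092340-34095234, *H2-DMa* at chr17:34119541-34139101, *H2-DMb1* at chr17:34153072-34160230, *H2-Ab1* at chr17:34257689-34269419, *H2-Aa* at chr17:34282744-34287823 and *H2-Eb1* at chr17:34305867-34316674. *Ciita* lies apart, at chr16:10480059-10528418. As the DNA at which *Ciita* is held, the bases before the start of 2 rule genes and of 2 class II genes outside the rule are shown, from the RefSeq promoter table on GRCm38.p6. Capitals mark 3 motifs searched on both strands: TGATTGG, the Y box; TGACG, the core of the X2 box; and AACTGATG, a stretch of the X box whose letters were chosen after these sequences had been read. For *H2-Aa* (minus strand, chr17:34287824-34288073) and *H2-Eb1* (plus strand, chr17:34305617-34305866) the whole 250 bases are given 5′ to 3′, and for *H2-DMb1* (plus strand, chr17:34153105-34153134) and *H2-Oa* (plus strand, chr17:34092311-34092340) the 30 bases that end with the Y box. The GENCODE model of *H2-DMb1* starts before the RefSeq start, so its stretch lies within that gene model.
H2-Aa: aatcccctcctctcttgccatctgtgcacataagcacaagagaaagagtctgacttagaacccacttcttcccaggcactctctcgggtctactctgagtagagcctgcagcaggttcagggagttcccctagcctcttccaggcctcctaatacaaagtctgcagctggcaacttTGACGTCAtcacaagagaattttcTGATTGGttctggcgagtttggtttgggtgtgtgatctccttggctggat
H2-Eb1: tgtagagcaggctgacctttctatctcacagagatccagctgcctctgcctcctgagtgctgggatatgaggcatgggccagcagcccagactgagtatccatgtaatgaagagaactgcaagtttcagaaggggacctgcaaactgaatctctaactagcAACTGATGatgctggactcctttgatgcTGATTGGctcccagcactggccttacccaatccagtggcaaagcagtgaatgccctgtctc
H2-DMb1: tgatgctaggctgattcactcagTGATTGG
H2-Oa: cccattatctcagagaactgctcTGATTGG
The Y box began 50 bases before the RefSeq start of *H2-Aa*, 61 before that of *H2-Eb1*, 63 before that of *H2-DMb1* and 45 before that of *H2-Oa*. TGATTGG was found for 7 of the 8 class II genes in the table, with *H2-DMa* as the exception, against 7.23% of all 32851 windows of this length. AACTGATG was found for 3 of these 8 genes and in 0.676% of all windows, from which nothing is read, since its letters were taken from these same sequences. TGACG was found for 1 of 8, *H2-Aa*, and in 17.8% of all windows. In *H2-Aa* both strands of the X2 box core matched, in the overlapping run TGACGTCA.

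MHC class II high cells made up 10.9% of the filtered cells of the control library (675 of 6185, 95% Clopper-Pearson interval 10.1 to 11.7) and 5.52% of those of the tumor library (423 of 7666, 5.02 to 6.05). The interferon limit took different numbers of cells from the libraries. It removed 8 of 683 class II high cells in the control library (1.17%) and 81 of 504 in the tumor library (16.1%), and without it the shares were 11.04% and 6.57%. Summed over all filtered cells, the 4 class II genes gave 694 CPM in the control library and 580 in the tumor library. Members held 71.3% of these UMIs in the control library and 52.3% in the tumor library, and the 81 tumor cells removed by the interferon limit held 18.2%. The gap between the libraries also varied with depth. Among cells under 5000 UMIs the share of members was 11.8% in the control and 3.53% in the tumor library, whereas among cells with 15000 UMIs or more it was 8.49% (6.79 to 10.46) and 8.74% (6.78 to 11.04). Cells thinned to 3600 UMIs before the rule was applied gave 10.3% and 5.57%.

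The class II level was a continuous range with no gap at the limit. No class II UMI was seen in 53.3% of control and 61.3% of tumor cells. Just below the limit, at 1500 to 2000 CPM, lay 152 control and 147 tumor cells, and just above it, at 2000 to 2500, lay 127 and 105. The lowest members had 2002 and 2004 CPM, and the highest cells under the limit 1999 and 1993. The median member had 3823 CPM in the control and 3558 in the tumor library, from 38 and 33 UMIs of the 4 genes, and 31 and 17 members passed the limit on fewer than 10 such UMIs. *Cd74* gave 62.4% of the rule's UMIs in control members and 60.7% in tumor members, *H2-Eb1* 7.01% and 7.80%, and 79.1% and 77.5% of the members had UMIs of all 4 genes.

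**Figure D1:**
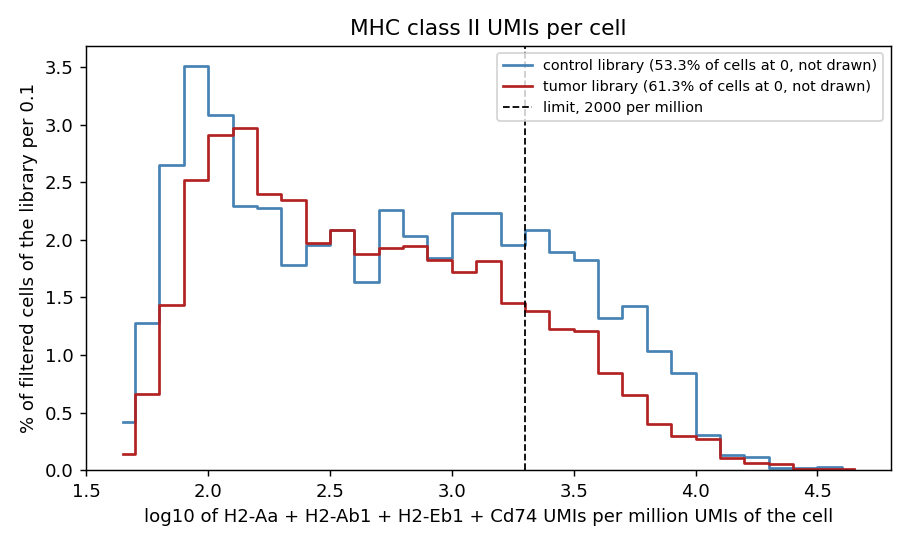
Histogram of the class II level per cell, with log10 of the summed CPM of *H2-Aa*, *H2-Ab1*, *H2-Eb1* and *Cd74* on the x axis and the percentage of filtered cells per bin on the y axis. The 53.3% of control and 61.3% of tumor cells with no such UMI are not drawn, and neither curve breaks at the limit of 2000 CPM.

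The member cells carried the AM program that the sort was made for. Of 22 AM markers, *Chil3*, a chitinase-like protein, was found at 13023 CPM in control members and at 8799 in tumor members. The median summed level of the 22 markers per cell was 22818 CPM in control members against 22355 in the other control cells, and 17089 in tumor members against 21164 in the other tumor cells. Only 5 control members (0.741%) and 16 tumor members (3.78%) fell under 5000 CPM, a limit set after the data were seen. The 5 control cells were led by *Igkc*, *Ighm*, *Ly6d* and *Cd79a*, which mark B cells, and the 16 tumor cells by *Ifitm3*, *Apoe* and *Igfbp7*. Of the dendritic cell genes, *Flt3* and *Cd209a* had no UMI in any member and *Zbtb46* was at 0.292 CPM in control and 0 in tumor members (upper Poisson bound 0.847). Of the 15 conventional dendritic cell markers 6 had no UMI in control members and 6 had none in tumor members, and the list summed to 102 CPM in control members against 102 in the other cells and to 86.1 against 85.0 in the tumor library. At least 3 such UMIs were seen in 10.8% of control members against 12.03% of the others, and in 8.27% of tumor members against 5.80%. The 9 mature dendritic cell markers summed to 72.5 against 57.3 CPM and to 59.7 against 59.3, and 3 or more of their UMIs were seen in 4.30% against 3.81% and in 3.55% against 3.02%. Of the 2 mature dendritic cell markers with UMIs enough to compare, 1 was at least 2-fold higher in members of both libraries, beside 0.195% of all genes compared. Among the lists of other cell types, 3 or more UMIs of epithelial markers were found in 73.9% of control members and likewise in 73.9% of the other control cells, but in 12.8% of tumor members against 30.6% of the other tumor cells. Such UMIs of interstitial macrophage markers were found in 3.85% of control members against 1.72% of the others, and in 18.9% of tumor members against 7.65%. For T and NK cell markers, of which only *Il7r* had UMIs enough to compare, these shares were 0.296% against 0.472% and 4.73% against 1.34%. For B cell markers they were 0.741% (5 cells) against 0.0181% in the control library and 0.473% (2 cells) against 0.0138% in the tumor library, where those 2 members had a median of 582 CPM of AM markers. For fibroblast and endothelial markers they were 0% against 0.218% and 0.709% (3 cells, with a median of 333 CPM of AM markers) against 0.221%, and for neutrophil markers 4.30% against 6.50% and 15.6% against 13.2%. Scrublet called no doublet in either library at its automatic threshold, so doublets were not removed, and the 274 control and 410 tumor cells whose scores lay above the percentile that bounds the highest 6% (4.43% and 5.35% of filtered cells, ties at the bound being left out) held 4.15% of control members against 4.46% of the other cells and 4.73% of tumor members against 5.38%. The libraries shared 25 barcodes, of which 1 belonged to a member, and no cell was a member in both. Median depth was 10287 UMIs in control members and 10376 in the other control cells, and 9516 and 8216 in the tumor library, where the members were the deeper class. Tumor members thus had a lower summed level of AM markers and more cells with interstitial macrophage UMIs than the other tumor cells, and the part of these cells in the differences below was not tested beyond the values given without them.

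Members were compared with all other filtered cells in each library on its own. These other cells included the class II high cells that the interferon limit removed, 8 in the control and 81 in the tumor library. The removed cells held 1432 and 7260 UMIs of the rule's class II genes, and the cells below the class II limit 11459 and 11764. In the 81 tumor cells *H2-Aa* was at 945 CPM and *H2-M2* at 98.0. A comparison with the removed cells left out of both classes was not tested. With the 11 rule genes left out, 9743 genes had at least 10 UMIs in both classes of both libraries. The members' own selection makes the rule genes a description only: *H2-Aa* was at 695 CPM in control members against 24.7 in the other control cells, and at 754 against 41.9 in the tumor library. Outside the rule, 19 genes (0.195% of those tested) were at least 2-fold higher in members in both libraries and 0 (0%) were at least 2-fold lower in both. In the control library alone 46 genes (0.472%) were higher and 13 (0.133%) lower by that measure, and in the tumor library 95 (0.975%) and 84 (0.862%). No gene was at least 2-fold higher in one library and 2-fold lower in the other. The other cells serve as the common reference within each library, and a cell's class II UMIs chose its class, so genes that vary with these transcripts in the same cells were measured on the same libraries as the rule.

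*Ciita*, the transactivator of these genes, had the highest log2 ratio of the 19 in the control library and came after *C1qb* in the tumor library. It was at 14.0 CPM (11.3 to 17.1) in control members and 1.03 (0.790 to 1.33) in the other control cells, a log2 ratio of 3.76 (3.28 to 4.25), and at 7.58 (5.22 to 10.6) against 1.10 (0.860 to 1.39) in the tumor library, where it was 2.78 (2.14 to 3.40). These levels rest on 83 control and 29 tumor members with a *Ciita* UMI. With all cells thinned to 3600 UMIs, a *Ciita* UMI was seen in 4.07% of control members and 0.499% of the other cells, and in 2.98% and 0.363% in the tumor library, where a count of 0 would allow 0.744% of members. Within tumor members its level was 5.47 CPM at 2000 to 4000 class II CPM, 12.9 at 4000 to 8000 and 4.16 (0.504 to 15.02) above 8000, the last on 2 UMIs. In control members it was 10.8, 13.6 and 30.3 (19.4 to 45.1). The highest control band also held *Igkc* at 279 CPM and *Cd79a* at 49.2, and the highest tumor band held them at 108 and 56.1, against under 1 CPM in the other bands. The 5 control members under 5000 CPM of AM markers, which carried B cell genes, had a median class II level of 19562 CPM. They held 221 *Igkc* and 37 *Cd79a* UMIs, and the highest control band held 221 and 39. Their part in the *Ciita* level of that band was not tested. Without all cells under 5000 CPM of AM markers, *Ciita* was at 13.9 CPM in the control members left. Its log2 ratio was then 3.74 in the control and 2.83 in the tumor library. Tumor members had less *Ciita* than control members, with a log2 ratio of -0.88 (-1.50 to -0.30), while the other cells had 0.09 (-0.43 to 0.61).

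The H2-DM and H2-O genes, which were not part of the rule, were also higher in members. *H2-DMb1* was at 235 CPM (224 to 247) in control members and 66.5 (64.4 to 68.6) in the other control cells, and at 189 (176 to 202) and 63.6 (61.7 to 65.6) in the tumor library. Its log2 ratios were 1.82 (1.74 to 1.91) and 1.57 (1.46 to 1.68), and after thinning it was seen in 57.9% of control members against 21.3% of the other cells and in 45.4% against 18.9% in the tumor library. *H2-DMa*, the partner chain, was higher by less than 2-fold, with 403 against 241 CPM in the control library and 263 against 172 in the tumor library. *H2-Oa* was at 5.69 against 1.93 CPM and at 2.99 against 0.962. *H2-DMb2*, a close copy of *H2-DMb1* whose shared reads could be split or dropped in counting, was at 9.18 against 4.95 and 7.12 against 4.38, but with thinned cells its log2 ratio in the tumor library was -0.015, while *H2-Ob* and *H2-Eb2* had too few UMIs to compare. Of the 4 accessory genes compared, 2 were at least 2-fold higher in both libraries, beside 0.195% of all genes compared, and the median log2 ratio was 1.22 in the control and 1.14 in the tumor library, against -0.01 and -0.05 over all genes.

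The other regulators of class II transcription differed less. *Rfx5*, a subunit of the RFX complex, had log2 ratios of 0.28 and -0.05, *Rfxap* 0.02 and 0.25, *Rfxank* 0.21 and -0.07, and *Nfya* of the NF-Y complex -0.15 and 0.06, each with a counting interval that included equal levels. *Creb1* had log2 ratios of 0.06 and -0.09. *Irf8*, a macrophage transcription factor, was at 126 against 125 CPM and at 175 against 168. *Irf4* was 2-fold higher in the tumor library alone, with log2 ratios of 0.47 and 1.17, and *Nfyb* had -0.01 and -0.63. Of the 13 regulators compared, *Ciita* alone was at least 2-fold higher in both libraries, beside 0.195% of all genes, and none was at least 2-fold lower, with a median log2 ratio of 0.06 in the control and -0.02 in the tumor library. Among 13 genes of antigen processing, none reached 2-fold in either library, which is near the share of all genes, from 0.133% to 0.975% by direction and library, and is no result about the list. The median log2 ratio was 0.03 in the control and 0.19 in the tumor library. *Ctss*, cathepsin S, which cleaves the invariant chain, was at 2627 against 2364 CPM in the control library and at 5619 against 3949 in the tumor library, and *Ctsh*, another cathepsin, had log2 ratios of 0.31 and 0.46. Of 8 costimulation and checkpoint genes compared none reached 2-fold, again near the share of all genes, with medians of 0.20 and -0.06. *Cd86*, a ligand of CD28, had log2 ratios of 0.53 and 0.68 (-0.39 in the control library with cells of other type markers removed), *Cd80* 0.21 and -0.34, and *Cd274*, which encodes PD-L1, 0.14 and -0.01. *Cd40* had 1 UMI in control and 4 in tumor members, so a difference was not detectable at this depth.

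Interferon-γ is the best known inducer of *Ciita* in macrophages. None of 13 interferon-γ targets compared was at least 2-fold higher in members of either library, near the 0.472% and 0.975% of all genes that were, so the count alone says nothing about these targets. The median log2 ratio was 0.12 in the control and 0.01 in the tumor library. *Irf1*, an interferon-induced transcription factor, was at 27.0 against 28.7 CPM in the control and 50.8 against 52.3 in the tumor library. *Cxcl10* was lower in tumor members, at 4.82 against 17.0 CPM, and the interferon limit of the rule keeps out cells rich in genes that are induced with it. The receptor gene *Ifngr1* had a log2 ratio of 0.27 in each library. Among class I presentation genes, *H2-Q7* had log2 ratios of 0.97 and 1.15, and *H2-Q6* 1.16 and 0.62, both with near-identical copies that make their counts uncertain, while *B2m* had 0.21 and 0.36.

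**Figure D2:**
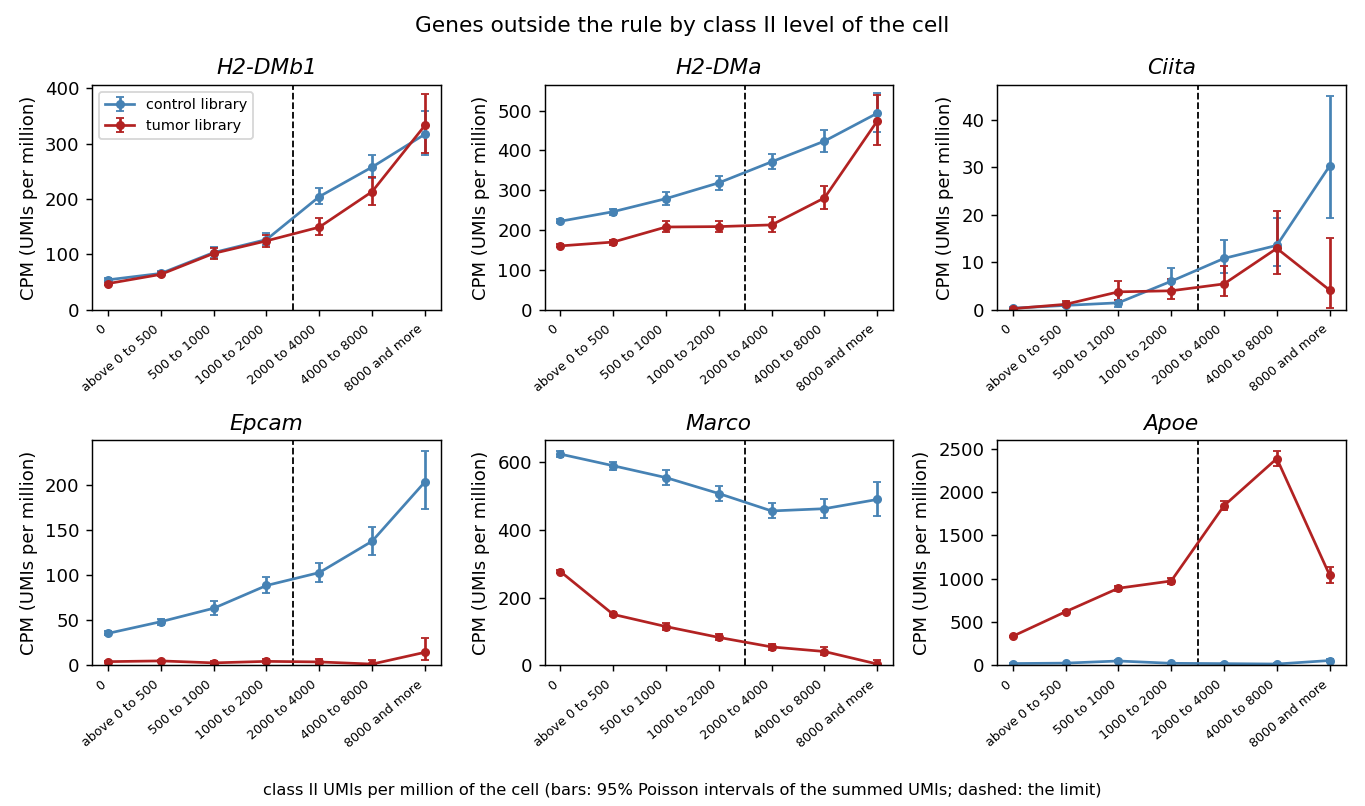
Level of 6 genes outside the rule in CPM (y axis) by the class II level of the cells (x axis, from 0 to 8000 CPM and more), for the control library in blue and the tumor library in red, with 95% Poisson intervals and a dashed line at the limit. *H2-DMb1* and *H2-DMa* were higher at higher class II levels in both libraries, *Epcam* in the control library, and *Marco* was lower at higher levels in the tumor library.

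*H2-DMb1* and *H2-DMa* were higher from band to band over the whole range of class II levels in both libraries, below the limit as well. *H2-DMb1* was at 54.2 CPM in control cells with no class II UMI, 127 at 1000 to 2000 CPM, 204 at 2000 to 4000, 258 at 4000 to 8000 and 317 above. In the tumor library the same bands gave 47.5, 124, 149, 213 and 333. *H2-DMa* went from 222 to 494 CPM in the control and from 161 to 474 in the tumor library between the lowest and the highest band. *H2-DMb2* did not follow this order in the tumor library, where it was at 4.75 CPM with no class II UMI, 3.27 at 1000 to 2000 and 5.08 at 2000 to 4000. These values are across cells of 1 library each and are a description.

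The other genes of the 19 had various roles. Besides *Ciita*, *H2-DMb1* and *H2-Oa* they included *C1qb*, *H2-M2*, *S100a4*, *Mmp14*, *Pdgfb*, *AA467197*, *Bmyc*, *Eng*, *Slc30a4*, *Ccl17*, *Nectin1*, *Cd300lg*, *Gm19951* and *Ly6i*, with log2 ratios from 1.01 to 3.53 in the control and from 1.08 to 2.95 in the tumor library. Only *S100a4* and *H2-DMb1* were at 50 CPM or more in members of both libraries. *S100a4*, a calcium-binding protein of motile cells, was at 76.7 CPM (70.3 to 83.5) against 16.7 (15.7 to 17.8) in the control and at 317 (301 to 334) against 150 (147 to 153) in the tumor library. *C1qb*, a chain of complement C1q, was at 2.19 against 0.190 CPM in the control library, where 1 cell gave 26.7% of the members' UMIs, and at 111 against 14.4 in the tumor library. *H2-M2*, a nonclassical class I gene, was at 2.33 against 0.310 CPM in the control library and at 22.5 against 3.31 in the tumor library, where 1 cell gave 35.7% of the members' UMIs. Without control cluster 5, described below, its control log2 ratio went from 2.91 to 1.78 (0.28 to 3.11), on 7 UMIs. *Ccl17*, a chemokine that attracts T cells, was at 11.2 against 4.35 and 7.35 against 3.43, from 27 and 13 members. For 10 of the 19 genes no single cell gave 15% or more of the members' UMIs in either library. When cells under 5000 CPM of AM markers were removed from both classes, 18 genes were at least 2-fold higher in both libraries, with *H2-Q7* and *Gpr171* among them and *Eng*, *Ccl17* and *Ly6i* no longer so.

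**Figure D3:**
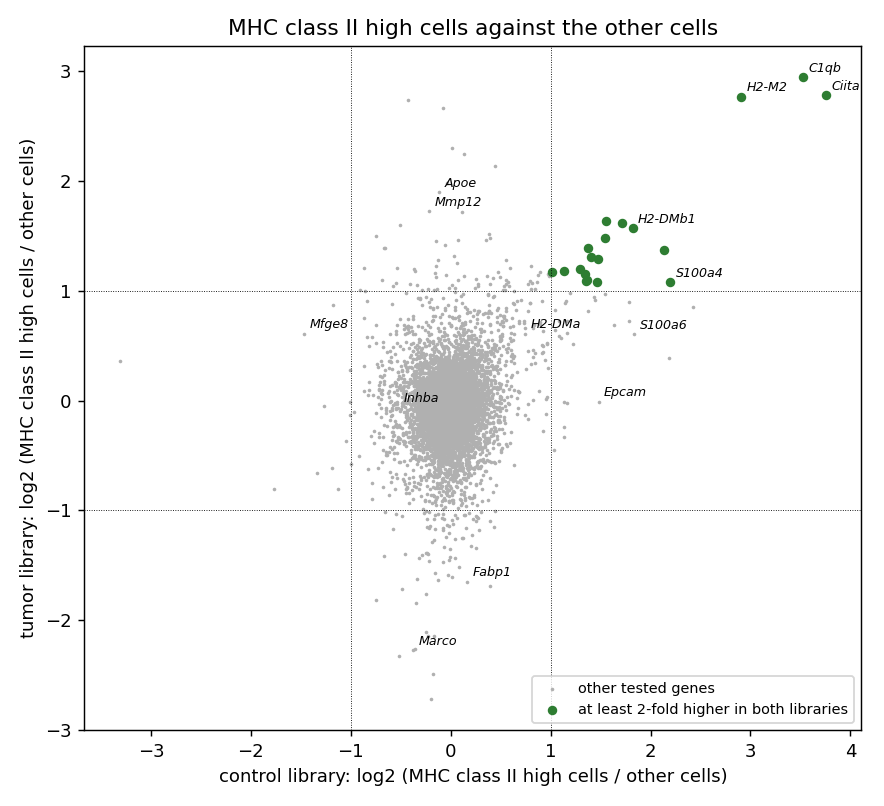
Log2 ratio of MHC class II high cells over the other cells for 9743 genes, in the control library (x axis) and in the tumor library (y axis), with the 19 genes at least 2-fold higher in both in green and dotted lines at 2-fold. *Ciita*, *C1qb* and *H2-M2* lie far along both axes, the latter pair on few control UMIs, *Epcam* and *S100a6* extend along the control axis, and *Marco* and *Apoe* along the tumor axis.

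Outside these shared genes, members differed from the other cells in different genes in each library. In the control library 5 genes passed 2-fold at 50 CPM or more in the higher class: *S100a4*, *S100a6*, *H2-DMb1* and *Epcam* higher, and *Mfge8* lower. *Epcam*, an adhesion protein best known from epithelia, was at 126 CPM (118 to 135) in control members and 45.1 (43.4 to 46.9) in the other control cells, with 1.48 (1.37 to 1.59) as the log2 ratio. It was at 4.36 (2.63 to 6.81) and 4.39 (3.89 to 4.93) in the tumor library, where the log2 ratio was -0.01 (-0.76 to 0.66), and the difference between the libraries' log2 ratios was -1.49 (-2.17 to -0.81). Its control level went from 35.5 CPM in cells with no class II UMI to 103 at 2000 to 4000 CPM, 138 at 4000 to 8000 and 203 above. The thinned share of cells with an *Epcam* UMI was 32.2% of control members and 13.6% of the other control cells, and 1.74% and 1.42% in the tumor library. Among control cells with an *Epcam* UMI 19.2% were members, against 7.42% of those without one. *Mfge8*, a bridge for the uptake of dying cells, was at 25.2 against 69.8 CPM in the control library and at 154 against 101 in the tumor library, where 1 cell gave 26.3% of the members' UMIs. Both directions turned with cells holding 3 or more UMIs of other cell types' markers removed, to log2 ratios of 0.075 in the control and -1.54 in the tumor library. The tumor ratio was -0.35 at the limit of 4000 CPM and -0.20 with cells of interstitial macrophage markers removed.

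In the tumor library 21 genes passed the same limits, 11 higher and 10 lower in members. The genes lower in members were *Marco*, *Acaa1b*, *Fabp1*, *Krt19*, *Cidec*, *Perp*, *Ccnd2*, *Wwtr1*, *Krt79* and *Tmem64*. *Marco*, a scavenger receptor of AMs, was at 45 CPM (38.9 to 51.8) in tumor members and 218 (214 to 221) in the other tumor cells, a log2 ratio of -2.27 (-2.48 to -2.07), but at 462 and 600 in the control library, a log2 ratio of -0.38. Thinned to the same depth, 6.95% of tumor members had a *Marco* UMI against 28.4% of the other tumor cells, and 49.1% against 63.1% in the control library. Of 2609 tumor cells with a *Marco* UMI 1.65% were members (1.20 to 2.21), and of 5057 without one 7.51% were (6.803 to 8.276). *Fabp1*, a fatty acid binding protein, was at 43.2 against 135 CPM in the tumor library and at 570 against 509 in the control library, and *Cidec*, a lipid droplet protein, at 51.7 against 157 and at 256 against 253. Of the 22 AM markers, *Marco*, *Fabp1*, *Cidec* and *Krt79* were at least 2-fold lower in tumor members and none was in control members, beside 0.862% and 0.133% of all genes compared. Others were nearly level, such as *Itgax* (log2 ratio -0.01) and *Siglec1* (-0.07), and the median log2 ratio of the list was -0.33 in the tumor and -0.01 in the control library.

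The genes at least 2-fold higher in tumor members at 50 CPM or more included *Apoe*, *C1qb*, *Mmp12*, *H2-DMb1*, *Pla2g7*, *Mmp14*, *AA467197*, *H2-Q7*, *S100a4* and *Cxcl16*. *Apoe*, which carries lipid, was at 1917 CPM (1876 to 1958) in tumor members against 514 (508 to 519) in the other tumor cells, and at 23.8 against 25.8 in the control library. With cells holding 3 or more UMIs of other cell types' markers removed, its log2 ratio in the tumor library turned to -0.30, and that of *Mmp12* to -0.59. A part of these genes came from few cells. Without the 18 tumor members of cluster 6, described next, *Apoe* was at 773 CPM and its log2 ratio went from 1.90 to 0.59, and *C1qb* was at 48.8 and went from 2.95 to 1.76. *Mmp12*, a macrophage elastase, had 34.2% of its UMIs in 1 tumor member. The log2 ratio of *Mfge8* went from 0.61 to 0.01 without cluster 6 and that of *Mmp12* from 1.73 to 0.99. *Marco* kept a log2 ratio of -2.16, *H2-DMb1* of 1.55 and *Ciita* of 2.75 without those cells, whose removal was chosen after the data were seen.

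The members of each library were clustered on their own, without the rule genes, ribosomal or mitochondrial genes, which gave 6 clusters in the control and 7 in the tumor library. *H2-DMb1* was found in each of them, from 195 to 340 CPM in the control clusters and from 130 to 240 in the tumor clusters, and *Ciita* had 5 to 26 UMIs in the control clusters and 1 to 10 in the tumor clusters. The clusters' leading genes were used to form them and carry no test. In the control library, cluster 1 (180 cells) was led by *Inhba*, *Cxcl1*, *Slc7a11* and *Plpp3*, with *Inhba* at 81.5 CPM. Cluster 3 (150 cells) had *Fabp1* and *Epcam* among its leading genes, with *Epcam* at 198 CPM. Cluster 4 (130 cells) was led by the heat shock genes *Hspa1b* and *Hspa1a*, and cluster 6 (21 cells) by cell cycle genes such as *Top2a*, with *Mki67* at 734 CPM. Control cluster 5 stood apart from the others with 34 cells: *Marco* was at 13.7 CPM there, against 324 to 591 in the other 5 clusters, *Epcam* at 13.7, *S100a6* at 1129, *S100a4* at 522, *Chil3* at 29405 and *Apoe* at 202. Monocyte markers summed to 2189 CPM in cluster 5, against 465 to 844 in the other 5 clusters. *Igkc*, *Ighm* and *Ly6d* were among its 10 leading genes as well, and B cell markers summed to 484 CPM there, so it was given no name. These UMIs were not particular to it. Control cluster 2 (160 cells) was led by *Igkc*, with 83 of its UMIs against 87 in cluster 5, 28 in cluster 3 and 24 in cluster 4, and B cell markers summed to 87.0 CPM in cluster 2. The 5 control members under 5000 CPM of AM markers held 221 *Igkc* UMIs, and the other control members had 0.292 CPM. The *Igkc* of these clusters thus came from few cells and is no trait of cluster 2 as a whole. All of the control members' *C1qb* UMIs lay in cluster 5. Without cluster 5, the log2 ratio of *S100a6* went from 1.84 to 1.33 and *S100a4* from 2.2 to 1.77, while *Ciita* stayed at 3.74, *H2-DMb1* at 1.79 and *Epcam* at 1.54.

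In the tumor library, cluster 1 (131 cells) was led by *Tnfrsf13b*, *Il6* and *Mef2c* and cluster 2 (98 cells) by *Cxcl3*, *Spp1* and the sterol synthesis gene *Sqle*, with *Spp1* at 5957 CPM and *Inhba* at 236. Both had hardly any *Marco*, at 3.84 and 3.03 CPM. Their monocyte markers summed to 2164 and 1994 CPM, against 1157 to 1344 in the other tumor clusters. Cluster 3 (65 cells) was led by *Apoc1*, *Colec12*, *H2-M2* and *Igkc*, with *Apoe* at 2424 CPM, 52 *Igkc* UMIs and B cell markers at 109 CPM. Cluster 4 (51 cells), led by *Krt19*, *Marco* and *Acaa1b*, had *Marco* at 251 CPM and a lower median class II level, 2849 CPM against 3384 to 4488 in the other clusters. Cluster 6 (18 cells) had *Apoe* at 16358 CPM, *C1qb* at 901, no *Marco* UMI and a median AM marker level of 4533 CPM. Its leading genes, *Igfbp7*, *Thbs1*, *Plac8*, *Sparc*, *Egfl7* and others, mixed genes of several cell types, and it was left unnamed. Cluster 7 (13 cells) was led by cell cycle genes, with *Mki67* at 747 CPM.

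**Figure D4:**
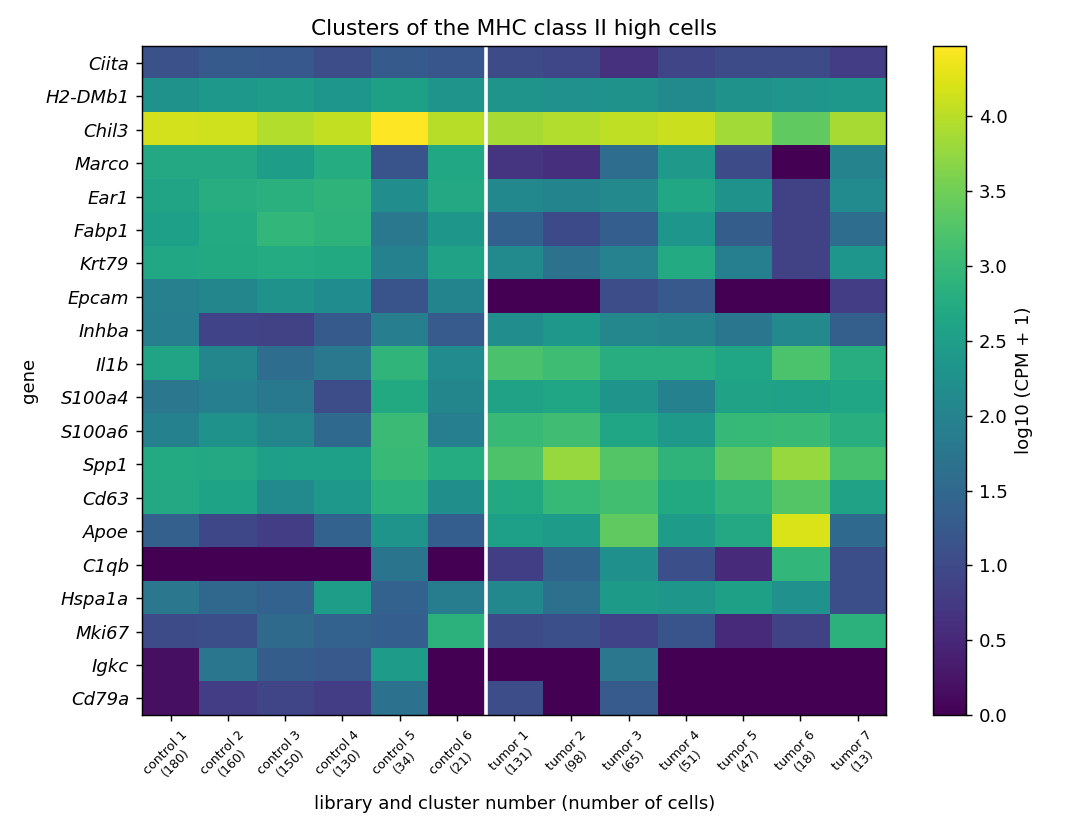
Level of 20 genes, as log10 of CPM plus 1 (colour), in the 6 clusters of control members and the 7 clusters of tumor members (columns, with the number of cells). *H2-DMb1* was found in all clusters, *Marco* was low in control cluster 5 and in tumor clusters 1, 2, 5 and 6, and *Apoe* was highest in tumor cluster 6.

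Between the libraries, 386 genes (3.96%) were at least 2-fold higher in tumor than in control members and 342 (3.51%) at least 2-fold lower. In the other cells these numbers were 253 (2.6%) and 153 (1.57%), and 228 of the higher and 65 of the lower genes passed in both classes. Members had fewer UMIs than the other cells, and with 30 UMIs asked of each class the counts in members were 232 and 150. The rule sets the class II genes themselves to a like level in both libraries, *Cd74* at 2920 and 2908 CPM.

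The 10 genes most raised in tumor members at 100 CPM or more were *Apoe*, *C1qb*, *Ifi27l2a*, *Syngr1*, *Vps37b*, *Spp1*, *Mfge8*, *S100a6*, *Ecm1* and *Wfdc17*. *Apoe* had a tumor over control log2 ratio of 6.33 (6.11 to 6.57) in members and 4.32 in the other cells, but 2.50 in members with cells of other type markers removed, below the 3.37 of *Vps37b* there, and 4.58 with cells of interstitial macrophage markers removed. *S100a6* was at 850 CPM in tumor members against 147 in control members, a log2 ratio of 2.53, and its ratio was larger in the other cells, at 3.77, where the control level was 41.1. *Spp1*, osteopontin, was at 2925 against 470 CPM. *Wfdc17*, an antiprotease of macrophages, was lower in members than in the other cells of the control library, at 139 against 233 CPM, and higher in the tumor library, at 711 against 441. *Inhba*, the activin A subunit that the study followed, was at 142 CPM (131 to 154) in tumor members and 149 (146 to 152) in the other tumor cells, and at 32.8 (28.7 to 37.4) and 47.1 (45.4 to 48.9) in the control library. Its tumor over control log2 ratio was 2.11 in members and 1.66 in the other cells, and the thinned share of cells with an *Inhba* UMI, 20.6% of tumor members and 20.01% of the other tumor cells, had overlapping intervals (16.8 to 24.9 and 19.05 to 20.99). *Il1b* was at 1014 against 199 CPM and *Osm* at 628 against 174.

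The 10 genes most lowered in tumor members at the same limit were *Epcam*, *Fabp1*, *Marco*, *Acaa1b*, *Gal*, *Cpne5*, *Syne2*, *Krt19*, *Perp* and *Cidec*. *Epcam* had a log2 ratio of -4.85 (-5.59 to -4.20) in members and -3.36 in the other cells. For *Fabp1*, *Marco*, *Acaa1b*, *Krt19* and *Cidec* the difference between members and other cells in this ratio lay between -1.92 and -1.51, the lowest 5 at this limit. *Marco* went from 462 CPM in control to 45 in tumor members, against 600 to 218 in the other cells. In the other direction, the ratio of *Mfge8* was higher in members by 2.08, that of *Apoe* by 2.02 and that of *Mmp12* by 1.94 on the log2 scale. With cells holding 3 or more UMIs of other cell types' markers removed, the log2 ratio of tumor members over the other tumor cells was -0.30 for *Apoe*, -0.59 for *Mmp12* and -1.54 for *Mfge8*, and the tumor over control log2 ratio of *Mfge8* in members was -1.23. Of the 22 AM markers 7 were at least 2-fold lower in tumor members, beside 3.51% of all genes compared, with a median log2 ratio of -0.50, against -0.15 in the other cells. Of 16 genes that stood out between these libraries in earlier results, 14 were at least 2-fold higher in tumor members, which is no independent evidence, since the list was drawn from these libraries.

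**Figure D5:**
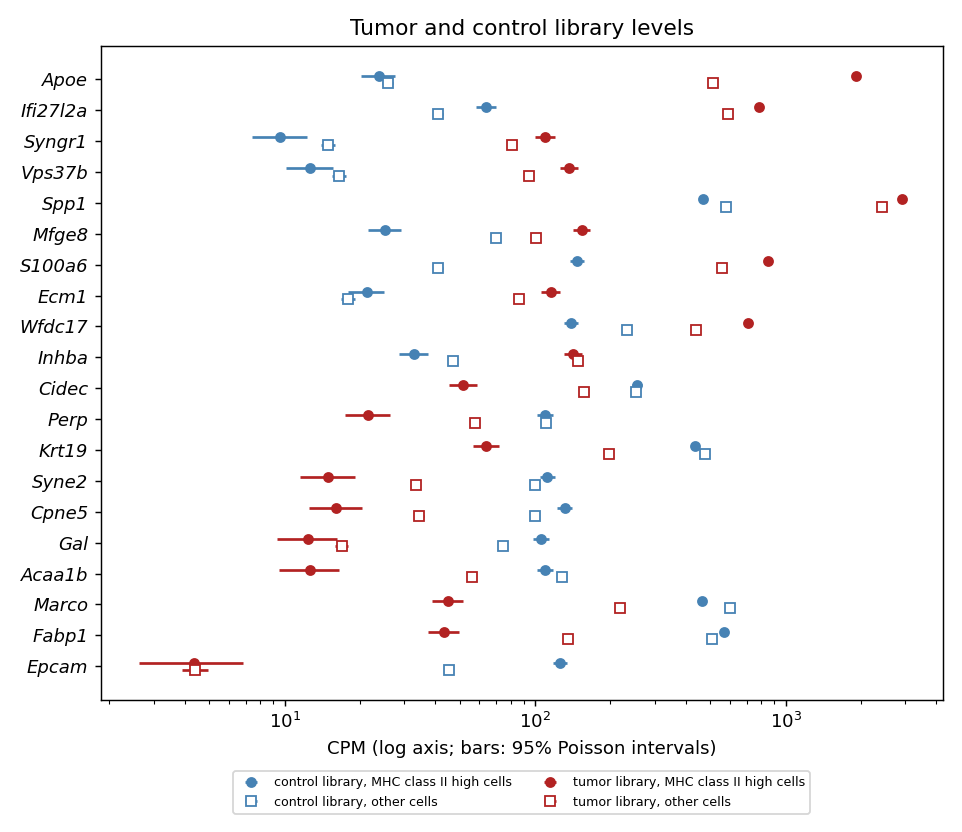
CPM on a log axis of the 10 genes most raised and the 10 most lowered in tumor over control members, without *C1qb* and with *Inhba*, in members (filled circles) and other cells (open squares) of the control library (blue) and the tumor library (red), with 95% Poisson intervals. For *Marco*, *Fabp1*, *Acaa1b*, *Krt19* and *Cidec* the tumor members lie below the other tumor cells, while the control classes lie close together.

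The cells removed by the interferon limit had more class II transcript than the members. The 81 tumor cells had a median of 4283 class II CPM, with *H2-DMb1* at 250 CPM (221 to 281), *H2-DMa* at 326 and *Ciita* at 8.09 (3.70 to 15.4), close to the tumor members' 7.58. Their class I genes were higher, *H2-K1* at 2541 CPM against 1667 in tumor members. *H2-M2* was at 98.0 CPM (80.5 to 118) against 22.5 in tumor members, and *Marco* at 73.7 against 45. The interferon genes of the rule define these cells and are not compared.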

How the data were processed

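The authors sequenced both droplet libraries and deposited raw UMI counts per gene and barcode for each. The labels' processing notes name bcl2fastq 2.20, Cell Ranger 4.0.0 and mm10, while the paper's methods name another Cell Ranger release, so the release is uncertain. The control library held 8485 barcodes and 67847088 UMIs, and the tumor library had 9175 and 70738320, and 32158 of 32285 gene identifiers were matched to a symbol. UMIs were summed over the cells of a class and library and scaled to CPM, with exact 95% Poisson, Clopper-Pearson or conditional binomial intervals. Genes needed 10 UMIs in each class and library, and no count model was fitted. The members and gene lists were chosen with earlier results of these data known. Named genes were those of the class II, regulator, antigen processing and costimulation lists, genes at least 2-fold in the same direction in both libraries at 50 CPM or more, the 10 largest and 10 smallest ratios of tumor over control in members at 100 CPM or more, the 5 each way that differed most from the other cells, markers and genes the study names; others were chosen after their values were seen. Shares with a UMI used cells thinned to 3600 UMIs. Members were clustered per library by the Leiden method (1500 variable genes, 20 components, 15 neighbours, resolution 0.6). The scripts were tested on simulated data first. The alternatives changed the limits, depth, scaling, quality filter, doublet scores and cells with markers of other types. The condition of all cells in a deposited table was read from the label of that table. The per-cell sample assignment by hashtag reads that the study's methods describe was not used here, and whether it would move cells between conditions was not tested. Some genes are not reported here. Python 3.11.15, numpy 2.4.6, scipy 1.17.1, pandas 2.3.3, scanpy 1.11.5, leidenalg 0.10.2 and matplotlib 3.10.9 were used.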

Additional observations from a re-analysis of the deposited data

Results flagged for a closer look

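Of the barcodes that failed the quality filter, which the comparisons do not use, some also met the class II and interferon limits. In the control library 69 of 2300 failed barcodes (3%, 2.34 to 3.78) met both limits, and in the tumor library 23 of 1509 (1.52%, 0.969 to 2.28). They had a median of 1435 and 1063 UMIs, and their class II level rested on a median of 5 and 4 UMIs. These shares were above the limit that a count of 0 allows and below those of the filtered cells in both libraries.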

How the results depend on the processing

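The share of MHC class II high cells was lower in the tumor than in the control library under every alternative run. Among cells with 15000 UMIs or more, as given above, this order was not kept, at 8.49% in the control and 8.74% in the tumor library. At a limit of 1000 CPM the shares were 17.3% and 10.0%, and at 4000 CPM 5.09% and 2.19%. With *H2-Aa*, *H2-Ab1* and *H2-Eb1* alone at 500 CPM they were 12.95% and 8.35%. Without the interferon limit the tumor share was 6.57%, with cells of other type markers removed 6.90%, and with cells of interstitial macrophage markers removed, an alternative added after the data were seen, 4.88%. The count of 19 genes higher in members of both libraries became 35 without the interferon limit, 8 with thinned cells, 3 with cells of other type markers removed and 7 with at least 30 UMIs asked, of which 18, 5, 2 and 7 were among the 19. Where the count moved less, its genes could still change: 10 of 13 at the limit of 1000 CPM, 12 of 23 at 4000 CPM and 13 of 21 with cells of interstitial macrophage markers removed were among the 19. The count of 0 lower genes became 1 at the limit of 1000 CPM and 2 with the mean of each cell's own CPM. The counts of tumor over control in members became 256 higher and 184 lower with thinned cells and 232 and 150 with at least 30 UMIs, and 103 higher with cells of other type markers removed. Thinned cells and the limit of 30 UMIs leave fewer genes to compare. Removing cells with other type markers took out 86.4% of control members and 86.9% of the other control cells. In the tumor library it took out 54.8% of members and 64.4% of the other cells. It left 92 control and 191 tumor members. Epithelial markers alone reached 3 UMIs in 73.9% of control members. The median AM marker level of these cells was 22620 CPM, against 22818 in all control members. Under this removal the log2 ratios of members over other cells turned to -0.30 for *Apoe* and -0.59 for *Mmp12* in the tumor library. In the control library that of *Mfge8* turned to 0.075, and its ratio of tumor over control in members turned to -1.23. Ratios reported below 2-fold turned there too, to -1.54 for *Mfge8* over the other tumor cells and to -3.75 for *Mmp12* over control members; the cause was not tested. Of 3148 values of 70 named genes under the alternatives, 2563 stayed within their counting interval, and 184 changed sign. Of the latter, 46 had been reported with an interval that left out equal levels, 32 of them with cells of other type markers removed, and 4 at 2-fold or more. The removal of cells under 5000 CPM of AM markers, also added later, kept all counts within 1.5-fold. No paired analysis was possible because each condition has 1 library. Depth limits the genes near 10 UMIs, such as *H2-Oa* with 13 in tumor members.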
